A study of Mus musculus with 8 samples.

Results

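TGF-beta and BMP signaling was followed through 48 member genes in left ventricles after angiotensin II (angII) infusion. The members were the rows of the count table whose gene name stood on a list of ligands, receptors, extracellular modulators, SMADs and targets of the pathway. The rule uses no measured value, although the list was drawn up with earlier results of these data known. All 48 were found among the 46040 genes of the table. Of these, 39 reached 1 CPM (the count scaled to the size of the library) in 2 or more libraries and were tested together with all other such genes, 13542 in total. None of the 39 passed this filter through 1 group alone.

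The study asked what the loss of VEGFR-1 signaling does to the pressure-overloaded heart. Left ventricular RNA of C57BL/6 mice was sequenced on day 14 of angII (0.1 mg/kg/h), with 4 libraries in each of 2 groups. The control-tagged group carries the genotype tag wildtype and library names with WT2. The knockout-tagged group carries the tag VEGFR1_TK -/- and library names with dVEGFR1TK2, in which *Flt1*, encoding VEGFR-1, lacks the intracellular tyrosine kinase domain. Per the study's methods, the animals were male mice of 5 to 7 months, the controls were littermates, and tissue came from the mice that survived to day 14. Both groups received angII and no untreated library was analysed here, so the effect of angII itself was not measured. The sample titles name the opposite genotype for every library. If the titles are right, the sign of each difference reported here reverses. The labels do not say that each library came from a separate mouse, so the p-values measure only the spread between these libraries, which may be technical.

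TGF-beta ligands, activins and BMPs are secreted dimers that bring together type I and type II serine/threonine kinase receptors. The activated type I receptor phosphorylates a receptor SMAD, which joins the shared *Smad4* product and enters the nucleus. SMAD2 and SMAD3 carry the TGF-beta and activin arm, best known in the heart for fibroblast activation and matrix production, whereas SMAD1, SMAD5 and SMAD9 carry the BMP arm, which in endothelial cells runs through the type I receptor ALK1 (*Acvrl1*) and the co-receptor endoglin (*Eng*).

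Counts per library lay between 11449137 and 16239670. Whole-gene *Flt1* counts were higher in the knockout-tagged group, at 158 ± 13.2 normalized CPM (SD, n = 4) against 69.3 ± 11.3, with a log2 fold change of 1.19 (SE 0.12). Counts over the whole gene do not separate the deleted exons, so they do not check the labels. *Flt1* was the only gene called by edgeR's quasi-likelihood test (FDR 0.00808 over all genes tested, with a difference of 1.5-fold or more), 0.00738% of the genes. It lost its call when control-tagged replicate 2 and knockout-tagged replicate 3 were both left out (FDR 0.159). Cardiomyocyte markers were present in every library, with a summed level of 70170 to 112900 normalized CPM.

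No member was called in either direction by the quasi-likelihood test, by edgeR's likelihood ratio test (53 genes called, 0.391%) or by DESeq2 (32 genes called, 0.293% of those with an adjusted p). DESeq2 gave no adjusted p for *Gdf11*, *Bmp2*, *Bmp7* and *Smad9*, so it could not call them. The 39 members leaned to lower levels in the knockout-tagged group. Of them, 31 had a log2 fold change below 0, against 50.3% of all genes tested, and their median was -0.14, against -0.0012 over all genes. The size of the differences was modest, from -0.57 for *Tgfb2* to 0.31 for *Gdf15*. At an unadjusted p under 0.05 there were 4 members, 10.3% of the 39, all of them lower, where 8.96% of all genes had such a p (5.64% lower and 3.32% higher). The share of members at that p was thus near the background. The 4 were the ligand *Tgfb2*, the type I receptors *Acvr1* and *Acvrl1*, and the activin antagonist *Fstl3*. In 4 members the groups did not overlap with the knockout-tagged group lower (*Gdf11*, *Acvr1*, *Acvrl1* and *Fstl3*; background 2.53%), and in 1 with it higher (*Tgfbr3*; background 2.46%, and 4.98% for either direction).

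**Figure D1:**
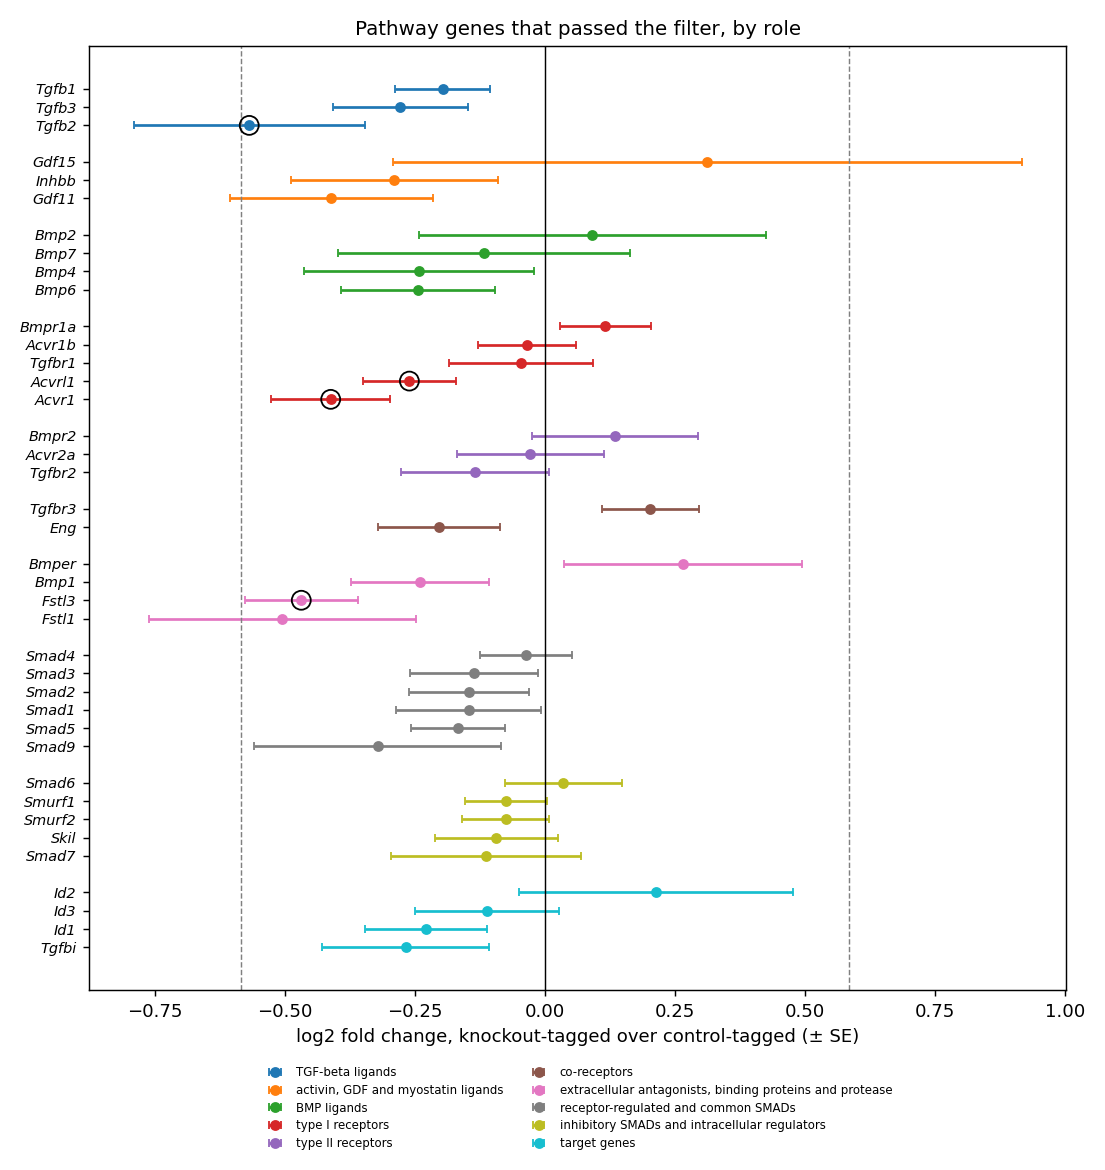
Log2 fold change (knockout-tagged over control-tagged) of the 39 tested members, arranged by their role, with standard errors as bars. Most points lie below 0, from -0.57 for *Tgfb2* to 0.31 for *Gdf15*, and none was called.

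The promoters of the 3 members with an unadjusted p under 0.05 that have an entry are shown here, beside the promoters of the BMP target *Id2* and the inhibitory SMAD gene *Smad6*, which hold a SMAD-type motif. The sequences are RefSeq promoters (assembly GRCm38.p6), 250 bases before to 50 after the transcription start, read 5′ to 3′ on the strand of the gene. Capitals mark a match to GGCGCC, the core of a BMP response element, or to GTCTAGAC, the palindromic SMAD box, searched on both strands.
Tgfb2 (chr1:186705940-186706239, minus strand): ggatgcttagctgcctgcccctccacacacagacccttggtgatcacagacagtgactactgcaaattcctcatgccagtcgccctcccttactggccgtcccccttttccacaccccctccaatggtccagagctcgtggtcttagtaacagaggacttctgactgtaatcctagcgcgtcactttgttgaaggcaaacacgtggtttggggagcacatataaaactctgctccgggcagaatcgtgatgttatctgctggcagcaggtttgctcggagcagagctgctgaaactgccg
Acvr1 (chr2:58566779-58567078, minus strand): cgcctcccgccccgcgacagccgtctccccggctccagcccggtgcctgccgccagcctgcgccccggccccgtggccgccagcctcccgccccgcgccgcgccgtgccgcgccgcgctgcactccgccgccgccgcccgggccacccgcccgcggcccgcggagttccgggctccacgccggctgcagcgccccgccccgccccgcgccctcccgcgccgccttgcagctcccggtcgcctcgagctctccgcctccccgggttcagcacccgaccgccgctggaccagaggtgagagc
Fstl3 (chr10:79777024-79777323, plus strand): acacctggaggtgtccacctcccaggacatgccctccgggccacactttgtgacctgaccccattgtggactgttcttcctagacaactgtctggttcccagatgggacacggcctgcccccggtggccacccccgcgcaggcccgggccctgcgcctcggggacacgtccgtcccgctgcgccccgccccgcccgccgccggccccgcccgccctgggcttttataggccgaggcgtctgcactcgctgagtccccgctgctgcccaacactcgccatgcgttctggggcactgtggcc
Id2 (chr12:25096043-25096342, minus strand): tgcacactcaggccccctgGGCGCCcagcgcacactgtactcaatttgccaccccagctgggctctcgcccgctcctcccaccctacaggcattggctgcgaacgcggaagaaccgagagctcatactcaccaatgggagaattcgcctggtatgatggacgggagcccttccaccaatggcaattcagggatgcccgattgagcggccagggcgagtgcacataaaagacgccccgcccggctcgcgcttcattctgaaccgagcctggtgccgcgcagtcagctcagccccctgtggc
Smad6 (chr9:64022010-64022309, minus strand): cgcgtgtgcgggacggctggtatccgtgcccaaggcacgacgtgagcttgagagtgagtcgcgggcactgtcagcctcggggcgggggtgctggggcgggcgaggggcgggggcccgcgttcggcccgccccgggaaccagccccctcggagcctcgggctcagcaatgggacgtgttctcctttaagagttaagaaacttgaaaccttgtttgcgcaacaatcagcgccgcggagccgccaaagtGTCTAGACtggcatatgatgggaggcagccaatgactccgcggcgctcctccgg
The *Tgfb2*, *Acvr1* and *Fstl3* windows held none of the letters searched, which also included AGCCAGACA, the SMAD3 and SMAD4 element. Of the 48 members 34 matched the promoter table by symbol, with 40 promoters. GGCGCC was found in 11 of the 40 (27.5%), in the genes *Acvr1b*, *Bmpr1a*, *Bmpr2*, *Grem1*, *Id2*, *Smad5*, *Smad9*, *Smurf2*, *Tgfbi* and *Tgfbr1*. It stood in 11.9% of all 32851 promoters and in 20.6% of those of the tested genes. Member promoters also held more G and C, with a median of 65.7% against 52.7% over all promoters and 60.7% over those of tested genes. The palindrome was found in *Smad6* alone (2.5%, against 0.213% of all promoters), where it starts 4 bases before the transcription start. AGCCAGACA occurred in 0 of the 40 and in 0.387% of all. *Id2* differed by 0.21 (SE 0.26) and *Smad6* by 0.03 (SE 0.11) on the log2 scale. These 2 genes were shown because they hold a motif, so their values say nothing about motif-bearing genes in general.

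Levels of different genes were compared as normalized CPM per kb of exons. *Eng* was the most abundant member in the control-tagged group at 111 ± 16.8, followed by the BMP targets *Id1* at 73.2 ± 10.6 and *Id3* at 53.6 ± 10.6, the secreted glycoprotein gene *Fstl1* at 38.2 ± 8.91 and *Acvrl1* at 19.8 ± 1.01. The least abundant tested members were the ligands *Bmp7* at 0.518 and *Bmp2* at 0.389. Ranges of neighbours in this order did not overlap only after *Eng*, *Fstl1*, *Acvrl1* and *Acvr1b*. The ranges of all other neighbours overlapped. Neighbours were not compared within each library, so this overlap does not show that their levels were alike. Endoglin and ALK1, which act together on endothelial cells, were thus the most abundant co-receptor and type I receptor. *Tgfbr2* at 9.34 ± 1.35 led the type II receptors, *Smad4* at 12.1 ± 0.833 the SMADs, and *Bmp6* at 7.57 ± 1.40 the BMP ligands. *Tgfb3* at 12.1 ± 1.15 stood beside *Tgfb1* at 10.3 ± 0.775 per kb of all exons, but per kb of the longest transcript *Tgfb1* came first (20.1 against 12.1). The same choice of length turned further pairs. Among them were *Id1* and *Id3* (73.2 and 75.1), *Acvr1* and *Acvr1b* (6.05 and 5.38) and *Smad1* and *Smad3* (5.73 and 4.05).

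**Figure D2:**
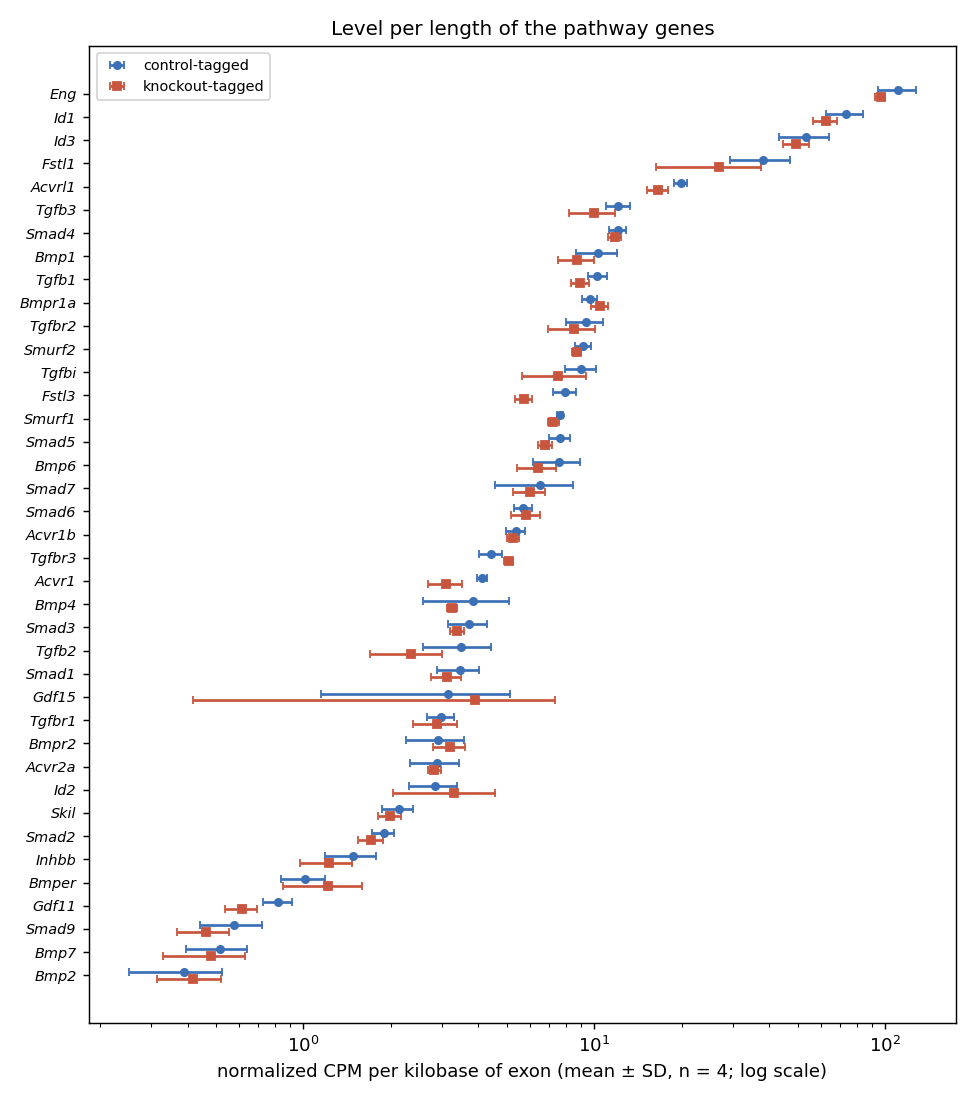
Level of each tested member in normalized CPM per kb of exons, on a log axis, for the control-tagged and knockout-tagged libraries, in order of the control-tagged mean. *Eng* stands at the top with a control-tagged mean of 111 and *Bmp2* at the bottom with 0.389.

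Among the ligands, all 3 TGF-beta genes were lower on average in the knockout-tagged group, with a median log2 fold change of -0.28. *Tgfb2* (ENSMUSG00000039239, GRCm38 chr1:186622792-186705989, minus strand), which signals through TGF-beta receptors with the help of betaglycan, had 18.9, 26.9, 14.2 and 20.9 normalized CPM in control-tagged replicates 1 to 4. It had 17.0, 11.6, 9.24 and 16.6 in knockout-tagged replicates 1 to 4. The groups overlapped, with control-tagged replicate 2 the highest and knockout-tagged replicate 3 the lowest of the 8. The difference of -0.57 (SE 0.22) on the log2 scale had an unadjusted p of 0.0255 and an FDR of 0.508 by the quasi-likelihood test, and an exact 2-sided permutation p of 0.114. Its unadjusted p rose above 0.05 without control-tagged replicate 2 (-0.40), control-tagged replicate 4 (-0.55), knockout-tagged replicate 2 (-0.50) or knockout-tagged replicate 3 (-0.42), and without both control-tagged replicate 2 and knockout-tagged replicate 3 the difference was -0.25. *Tgfb2* is thus the member among the 4 whose value depended most on single libraries.

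*Tgfb1*, the ligand most studied in cardiac fibrosis, had 52.2, 57.1, 48.1 and 49.7 normalized CPM in the control-tagged and 44.4, 42.2, 44.1 and 49.9 in the knockout-tagged replicates. Only knockout-tagged replicate 4 reached into the control-tagged range, and the log2 difference was -0.20 (SE 0.09, unadjusted p 0.0540, FDR 0.559 by the quasi-likelihood test). *Tgfb3* had 43.0, 44.7, 40.5 and 35.7 in the control-tagged and 36.2, 31.0, 27.1 and 40.8 in the knockout-tagged replicates, with a log2 difference of -0.28 (SE 0.13, unadjusted p 0.0536). Its groups overlapped.

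The activin and GDF ligands were scarce. *Gdf11*, a close relative of myostatin, had 2.99, 3.70, 3.03 and 3.60 normalized CPM in the control-tagged and 2.60, 2.49, 2.84 and 2.07 in the knockout-tagged replicates. Every control-tagged library was above every knockout-tagged one, which gives an exact permutation p of 0.0286, the smallest that 4 against 4 allows, while the quasi-likelihood FDR was 0.565. These levels rest on 40 to 51 counts per control-tagged library and 26 to 36 per knockout-tagged library. *Gdf15*, a stress-induced ligand whose known receptor is GFRAL, varied more within the groups than any other member. It had 10.2, 7.55, 3.16 and 2.40 in the control-tagged and 8.78, 1.86, 2.53 and 15.6 in the knockout-tagged replicates. Both groups held high and low libraries, and its difference of 0.31 (SE 0.60) turned to -0.40 without knockout-tagged replicate 4. *Inhbb*, which encodes the beta-B subunit of activins, lay between 3.99 and 7.67 over the 8 libraries (-0.29, SE 0.20). *Inhba* (0 to 6 counts per library) and *Mstn* (2 to 9), the genes of the beta-A subunit and of myostatin, were too low to test.

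Of the BMP ligands, *Bmp6* was the most abundant. It had 24.2, 27.6, 37.1 and 29.4 normalized CPM in the control-tagged and 19.8, 27.5, 28.1 and 24.5 in the knockout-tagged replicates, with a log2 difference of -0.24 (SE 0.15, FDR 0.647 by the quasi-likelihood test). The groups overlapped, and *Bmp6* shares 224 exon bases with *Txndc5*, whose reads could be counted there if strand was not used. *Bmp4* ranged from 4.87 to 10.95 in the control-tagged and from 7.03 to 7.65 in the knockout-tagged group (-0.24, SE 0.22). *Bmp2* (0.09, SE 0.33) and *Bmp7* (-0.12, SE 0.28) lay near the limit of the filter. *Bmp10*, the circulating ALK1 ligand made mainly in the atria, had 3 counts over all control-tagged libraries and 0 in the knockout-tagged ones. The atrial myosin light chain *Myl7* lay between 0.237 and 1.23 normalized CPM in the 8 libraries. The other genes of the atrial marker list ranged widely. *Sln* reached at most 0.266 normalized CPM, *Myl4* lay between 2.90 and 4.86, *Dkk3* between 2.69 and 13.5, and *Nppa* between 498 and 1425.

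Among the type I receptors, the 2 genes *Acvr1* and *Acvrl1* separated the groups. *Acvr1* (ALK2; ENSMUSG00000026836, chr2:58388644-58567157, minus strand), a type I receptor for BMPs, had 18.9, 19.8, 21.0 and 19.9 normalized CPM in the control-tagged and 15.4, 13.7, 13.2 and 17.5 in the knockout-tagged replicates. The lowest control-tagged library stood above the highest knockout-tagged one. The log2 difference was -0.41 (SE 0.11), with an unadjusted p of 0.00386 and an FDR of 0.442 by the quasi-likelihood test, 0.176 by the likelihood ratio test and 0.162 by DESeq2. Over the 16 alternatives the difference stayed between -0.50 and -0.36, with an unadjusted p under 0.05 in each, and the FDR ranged from 0.162 to 0.941.

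*Acvrl1* (ALK1; ENSMUSG00000000530, chr15:101128522-101145336, plus strand), the receptor through which BMP9 and BMP10 act on endothelium, had 81.4, 81.2, 85.0 and 90.4 normalized CPM in the control-tagged and 72.2, 61.7, 74.3 and 73.7 in the knockout-tagged replicates. Again the groups did not overlap. The difference was smaller, -0.26 (SE 0.09), with an unadjusted p of 0.0138, an FDR of 0.468 by the quasi-likelihood test and an exact permutation p of 0.0286, and lay between -0.31 and -0.20 under the alternatives (FDR 0.300 to 0.941). Summed markers of endothelium, where *Acvrl1* is mainly expressed, were also lower in every knockout-tagged library (1463 to 1608 against 1633 to 2022 normalized CPM). Fewer cells of a type and less RNA per cell cannot be told apart in bulk tissue. The other type I receptors had small differences, -0.05 (SE 0.14) for *Tgfbr1* (ALK5), -0.03 (SE 0.09) for the activin receptor gene *Acvr1b* and 0.12 (SE 0.09) for the BMP receptor gene *Bmpr1a*. *Bmpr1b* had 0 to 4 counts per library and was not tested.

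**Figure D3:**
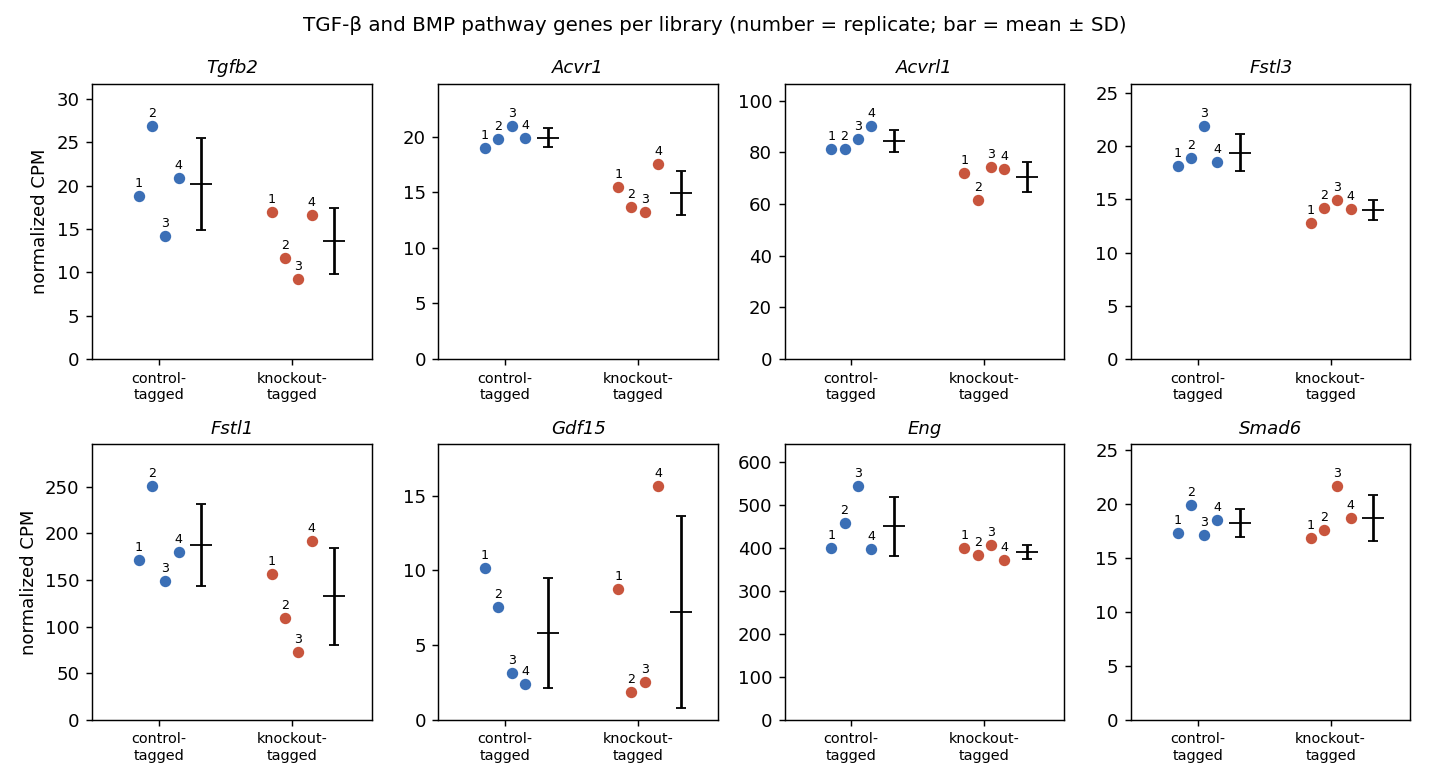
Normalized CPM of *Tgfb2*, *Acvr1*, *Acvrl1*, *Fstl3*, *Fstl1*, *Gdf15*, *Eng* and *Smad6* in each library, with the group mean and SD. The groups do not overlap for *Acvr1*, *Acvrl1* and *Fstl3*, and *Gdf15* has high and low libraries in both groups.

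Type II receptors showed less. *Tgfbr2*, the receptor that binds TGF-beta first, had 69.8, 93.1, 71.2 and 71.9 normalized CPM in the control-tagged and 76.3, 68.4, 52.5 and 81.5 in the knockout-tagged replicates, a difference of -0.13 (SE 0.14, FDR 0.807 by the quasi-likelihood test). The groups overlapped, with control-tagged replicate 2 highest and knockout-tagged replicate 3 lowest, as for *Tgfb2*, and without both the difference was 0.088. *Acvr2a* (-0.03, SE 0.14) and *Bmpr2* (0.13, SE 0.16) also differed by less than their errors. *Acvr2a* shares 446 exon bases with *Orc4* on the opposite strand, which had 265 to 340 counts per library. Reads of *Orc4* could be counted for *Acvr2a* if strand was not used. *Acvr2b* was not tested, with 9 to 16 counts per control-tagged and 1 to 9 per knockout-tagged library.

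The co-receptors differed in sign. *Tgfbr3* (betaglycan), which presents TGF-beta ligands to *Tgfbr2*, had 26.6, 31.4, 26.8 and 31.0 normalized CPM in the control-tagged and 33.6, 31.8, 34.5 and 33.3 in the knockout-tagged replicates. It was the only member with every knockout-tagged library above the control-tagged ones, at 0.20 (SE 0.09, unadjusted p 0.0518, FDR 0.559 by the quasi-likelihood test, exact permutation p 0.0286). *Eng* (endoglin; ENSMUSG00000026814, chr2:32646595-32682669, plus strand) had 400.3, 457, 543 and 398 in the control-tagged and 401, 383, 406 and 372 in the knockout-tagged replicates. Of these, 2 of the control-tagged libraries lay inside the knockout-tagged range, and the difference of -0.20 (SE 0.12) had an FDR of 0.634 and an exact permutation p of 0.171.

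The lowest unadjusted p among the members was that of the extracellular antagonist *Fstl3* (ENSMUSG00000020325, chr10:79777272-79782630, plus strand), a follistatin-like protein that binds activins and myostatin. It had 18.1, 18.9, 21.9 and 18.6 normalized CPM in the control-tagged and 12.8, 14.2, 14.9 and 14.1 in the knockout-tagged replicates. All control-tagged libraries were above all knockout-tagged ones, and each group was tight. The log2 difference of -0.47 (SE 0.11) had an unadjusted p of 0.00106 and an FDR of 0.442 by the quasi-likelihood test. Its FDR of 0.0744 in the likelihood ratio test and 0.0805 in DESeq2 passed 0.1, but the difference was under the 1.5-fold that a call needs. Under the alternatives the difference stayed between -0.51 and -0.41 with an unadjusted p under 0.05 in each. Its FDR ranged from 0.0744 to 0.941 over them. *Fstl3* shares 1157 exon bases with *Prss57* on the opposite strand, which had at most 2 counts in a library.

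*Fstl1*, a secreted glycoprotein of fibroblasts and other stromal cells, had 172, 250.2, 149 and 180.0 normalized CPM in the control-tagged and 156, 110, 72.2 and 191 in the knockout-tagged replicates. The difference was -0.50 (SE 0.26, unadjusted p 0.0731) with overlapping groups, since knockout-tagged replicate 4 stood above 3 of the control-tagged libraries. The same libraries were extreme as for *Tgfb2*, namely control-tagged replicate 2 at the top and knockout-tagged replicate 3 at the bottom. *Bmp1*, a protease that releases BMPs and processes procollagen, differed by -0.24 (SE 0.13) and *Bmper*, a BMP-binding protein of endothelium, by 0.27 (SE 0.23). The BMP antagonists *Nog* (0 to 7 counts per library) and *Chrdl1* (2 to 29) and the activin antagonist *Fst* (3 to 9) were not tested, and *Grem1* had 0 counts in every library.

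All 6 receptor and common SMADs were lower on average, by small amounts, with a median of -0.15. In the TGF-beta arm, *Smad2* differed by -0.15 (SE 0.12) and *Smad3* by -0.14 (SE 0.12). In the BMP arm, the differences were -0.15 (SE 0.14) for *Smad1*, -0.17 (SE 0.09) for *Smad5* and -0.32 (SE 0.24) for *Smad9*. *Smad4*, the common partner of both arms, had 48.1, 46.2, 41.0 and 43.8 normalized CPM in the control-tagged and 42.5, 45.4, 40.9 and 45.8 in the knockout-tagged replicates (-0.04, SE 0.09). Its groups overlapped almost wholly, and it was among the members that varied least within a group.

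The inhibitors inside the cell differed little on average, with a median of -0.08. *Smad6*, a feedback inhibitor of the BMP arm, had 17.4, 20.0, 17.2 and 18.6 normalized CPM in the control-tagged and 16.8, 17.6, 21.6 and 18.7 in the knockout-tagged replicates, with overlapping groups. *Smad7*, which inhibits both arms, differed by -0.11 (SE 0.18) and *Skil*, a SMAD corepressor, by -0.09 (SE 0.12). The ubiquitin ligase genes *Smurf1* (-0.07, SE 0.08) and *Smurf2* (-0.08, SE 0.08) had the smallest spread within groups of all members, with SDs of 0.0506 and 0.0747 on the log2 scale. For comparison, the SD was 1.21 for *Gdf15*, and its median was 0.207 over the members and 0.209 over all genes tested.

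Among the targets, *Id1*, which encodes a helix-loop-helix inhibitor induced by BMP signaling, had 71.4, 78.1, 92.1 and 98.1 normalized CPM in the control-tagged and 78.0, 64.2, 78.6 and 69.1 in the knockout-tagged replicates. Its log2 difference was -0.23 (SE 0.12, unadjusted p 0.0756, FDR 0.600 by the quasi-likelihood test) with overlapping groups. *Id3* differed by -0.11 (SE 0.14) and *Id2* by 0.21 (SE 0.26). *Tgfbi*, a matrix protein gene induced by TGF-beta, had 28.9, 33.9, 38.8 and 34.6 in the control-tagged and 29.2, 24.5, 21.6 and 37.8 in the knockout-tagged replicates (-0.27, SE 0.16). No target passed the test.

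Read by arm, the 11 tested genes of the endothelial ALK1 branch included 8 with a lower mean, with a median of -0.15 and 1 (*Acvrl1*) at an unadjusted p under 0.05. In the branch of SMAD2 and SMAD3, 12 of 12 had a lower mean, with a median of -0.14 and 1 (*Tgfb2*) at that p. This branch list did not hold the co-receptor gene *Tgfbr3*, which was higher (0.20). The smallest difference in the list, that of *Acvr2a* (-0.03), turned sign in some settings with libraries left out. Over all genes tested, 50.3% had a log2 fold change below 0, and 8.96% had an unadjusted p under 0.05 by the quasi-likelihood test. The medians of both arms lay beside that of all members. Neither branch list held *Acvr1* (-0.41) or *Fstl3* (-0.47), which were also lower at an unadjusted p under 0.05.

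In some libraries the median member deviated from its overall mean. The median member stood 0.15 above its overall mean in control-tagged replicate 2 and 0.14 below it in knockout-tagged replicate 3, on the log2 scale, and within 0.09 of it in the other libraries. The median over all genes tested deviated by 0.016 and 0.0032 in control-tagged replicate 2 and knockout-tagged replicate 3. Control-tagged replicate 2 was the highest of the 8 libraries for 11 of the 39 members, and knockout-tagged replicate 3 the lowest for 12. The shares of all genes with their highest or lowest value in these libraries were not computed. These 2 libraries were also the highest and the lowest in the summed markers of fibroblasts (2769 and 1610 normalized CPM) and leukocytes (539.3 and 274.9), and the lowest and the highest in those of cardiomyocytes (70170 and 112900). Summed markers of endothelium, and those of smooth muscle and pericytes, were instead highest in control-tagged replicate 3 and lowest in knockout-tagged replicate 2. Of the fibroblast markers 10 of 10 were lower on average, 1 with an unadjusted p under 0.05, with group ranges of 2353 to 2769 and 1610 to 2756. Leukocyte markers (9 of 10 lower, 2 at that p) summed to 407.5 to 539.3 and 274.9 to 417.2, and markers of smooth muscle and pericytes (8 of 10 lower, 5 at that p) to 1482 to 2086 and 1056 to 1606. Endothelial markers were lower in 9 of 10, 5 at that p, and cardiomyocyte markers higher in 7 of 10, 2 at that p, with ranges of 70170 to 112000 and 92050 to 112900. No marker of these lists was at 0 throughout, and the part of the cell types in the members' differences was not tested. Without control-tagged replicate 2 and knockout-tagged replicate 3 the median of the members was -0.11, against -0.14 with them.

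**Figure D4:**
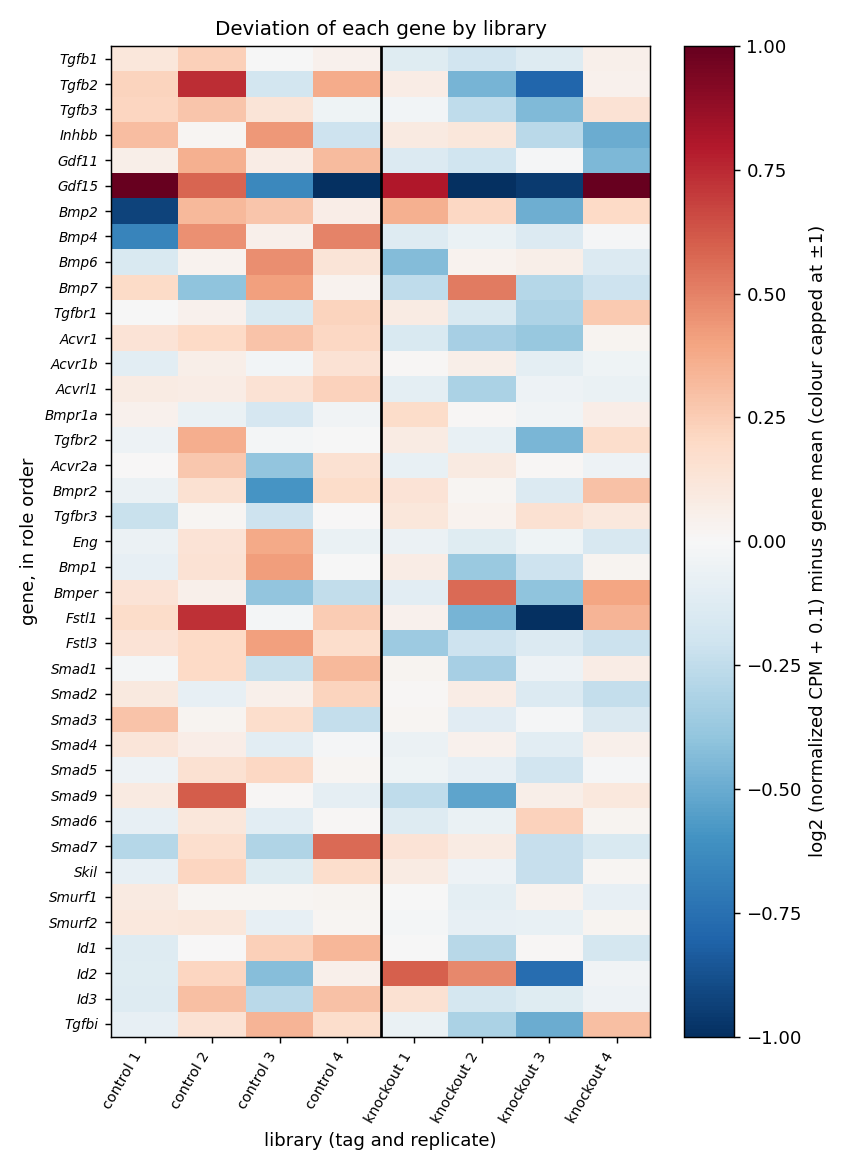
Deviation of each tested member from its mean over the 8 libraries, in log2 normalized CPM, shown as colour by library. The median deviation of the members, which is not drawn, was highest in control-tagged replicate 2 (0.15) and lowest in knockout-tagged replicate 3 (-0.14). These medians used a prior count of 2, which the drawn values did not.

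Other genes of the pathway were also described. From a list of 118 further ligands, receptors, latency and activation factors, antagonists, regulators and targets, 116 were in the table and 86 were tested. Of these, 61 had a lower and 25 a higher mean, and 16 had an unadjusted p under 0.05 (18.6%), all of them lower, where the background was 8.96% in either direction and 5.64% lower. Of the 86, 5 passed the filter on low counts through 1 group alone (*Bmp5*, *Itgb8*, *Lefty1*, *Runx2* and *Tll1*), and without them 57 of 81 had a lower mean and 15 (18.5%) had such a p, all lower. The quasi-likelihood test called 0 of the 86, whereas the likelihood ratio test and DESeq2 each called 2, *Fbn1* and *Ctgf*, both lower. By group, an unadjusted p under 0.05 was found for 5 of 18 latency and activation genes (*Ltbp3*, *Ltbp4*, *Fbn1*, *Emilin1* and *Bgn*). The median of that group was -0.31. Such a p was also found for 2 of 5 ligands, 2 of 6 receptors and co-receptors and 3 of 9 extracellular antagonists. It was found for 1 of 24 intracellular regulators and 3 of 24 partners and targets. Summed fibroblast, smooth muscle and pericyte markers moved the same way, and their part in these differences was not tested.

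Named from that list are the genes with an unadjusted p under 0.01. *Fbn1* (fibrillin-1, a microfibril protein that anchors latent TGF-beta) had 156, 227, 209 and 162 normalized CPM in the control-tagged and 107, 87.7, 68.3 and 153 in the knockout-tagged replicates. The groups did not overlap, and the log2 difference was -0.86 (SE 0.22, unadjusted p 0.00194, FDR 0.442 by the quasi-likelihood test, 0.0587 by the likelihood ratio test and 0.0561 by DESeq2). *Ctgf*, a matricellular TGF-beta target, had 239, 314, 409 and 438 in the control-tagged and 206, 129, 129 and 261 in the knockout-tagged replicates. Here 1 knockout-tagged library exceeded the lowest control-tagged one, and the difference was -0.95 (SE 0.25, unadjusted p 0.00244, FDR 0.442, 0.0587 and 0.0561 by the same tests). *Ltbp4*, a latent TGF-beta binding protein gene, had 670.0, 891, 1037 and 835 in the control-tagged and 588, 456, 550.4 and 758 in the knockout-tagged replicates (-0.55, SE 0.17, unadjusted p 0.00822, FDR 0.464 by the quasi-likelihood test). *Bmp5*, a BMP ligand gene, had 1.37 ± 0.320 against 0.581 ± 0.214 normalized CPM (-1.23, SE 0.35, unadjusted p 0.00431). It passed the filter through the control-tagged group alone, where 3 libraries reached 1 CPM and no knockout-tagged library did, so its direction was set by the filter.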

How the data were processed

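RNA of left ventricles was sequenced in 8 libraries, 4 per group. Per the submitters' processing notes and the study's methods, the authors trimmed reads with Trim Galore 0.4.4, aligned them to GRCm38 with STAR 2.5.4b and counted them per gene with featureCounts. The authors deposited raw counts, not normalized. The strand setting of the counting is not given in the sources used here, so overlapping genes on opposite strands may share reads. The sources differ on library preparation (ribosomal RNA depletion in the labels, poly-A selection in the methods) and on material (cardiomyo in the library names, ventricular tissue in the labels and methods).

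Libraries were grouped by genotype tag and library name, which the titles contradict. The filter required 1 CPM in 2 or more libraries and left 13542 genes. Counts were scaled by TMM (factors 0.917 to 1.12) and tested over all genes by quasi-likelihood (glmQLFit and glmQLFTest, edgeR 4.0.16, R 4.3.3), without covariates. FDR is the Benjamini-Hochberg adjusted p. A call needed an FDR below 0.1 together with a 1.5-fold difference. SEs were taken from the fold change and its F. Normalized CPM used library sizes multiplied by the TMM factors, with a prior count of 2 before taking log2. Single genes were compared with an exact 2-sided permutation test over the 70 assignments of 4 against 4 libraries, whose smallest p is 0.0286. Levels per kb used the union of exons, or the longest transcript, of GENCODE M21. The biological coefficient of variation was 15.1%, and a gene at 1 CPM has 11 to 16 counts, so counting error is large there.

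Alternatives, 16 in all, were edgeR's likelihood ratio test (the test of the study), DESeq2 1.42.0, RLE size factors, library totals, no filter, filterByExpr, the replicate number as a block, each library left out in turn, and control-tagged replicate 2 and knockout-tagged replicate 3 left out together. The last was chosen after the values were seen. The members and lists were chosen with earlier results of these data known, and the alternatives and the rule for named genes were fixed afterwards. The text describes each member, and of the other pathway genes it names those with an unadjusted p under 0.01, and, chosen after their values were seen, the latency genes with an unadjusted p under 0.05 and the genes that passed the filter through 1 group alone.

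The tests were tried on simulated counts of 13395 genes, of which 199 differed by 1.5 on the log2 scale. The quasi-likelihood test recovered 96.5% with 5.88% false calls, the likelihood ratio test 98.5% with 10.9%, and DESeq2 96.5% with 8.13%. Differences as small as those of the members (-0.57 for *Tgfb2* to 0.31 for *Gdf15*) were not simulated, so the recovery does not cover them. On the data, the same tests called 1, 53 and 32 genes. Libraries of a group differed by more than sampling noise (chi-square per degree of freedom 7.17 to 54.3). Libraries with the same replicate number did not deviate together in every pair (correlations -0.029, 0.029, 0.343 and -0.0555 for replicates 1 to 4), so the numbers were not taken as pairs.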

Additional observations from a re-analysis of the deposited data

Results flagged for a closer look

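In 4 of 78 groups of 4 libraries examined (39 members in 2 groups), 1 library stood apart from the others by Dixon's criterion, which chance alone meets in about 5% of groups. *Bmp7* was at 2.84 normalized CPM in knockout-tagged replicate 2, where the others were at 1.58 to 1.67. *Acvrl1* was at 61.7 in knockout-tagged replicate 2, below the 72.2 to 74.3 of the others. *Tgfbr2* was at 93.1 in control-tagged replicate 2, above the 69.8 to 71.9 of the others. *Smurf1* was at 50.1 in control-tagged replicate 1, above the 47.6 to 47.9 of the others.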

How the results depend on the processing

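Among all genes tested, 1 was called, against 53 by the likelihood ratio test, 32 by DESeq2, 23 without the filter on low counts, 1 to 3 when each library was left out in turn, and 0 without both control-tagged replicate 2 and knockout-tagged replicate 3. No member was called under any of the 16 alternatives. The members lower at an unadjusted p under 0.05 numbered 4, against 7 of 47 tested without the filter and 3 to 8 with 1 library left out (8 without control-tagged replicate 1 or without knockout-tagged replicate 4). Members higher at that p numbered 0, against 1 with RLE size factors (*Tgfbr3*), 0 to 1 with 1 library left out, and 1 without both named libraries (*Id2*). The median log2 fold change of the members stayed between -0.18 and -0.11. *Acvr1*, *Acvrl1* and *Fstl3* kept an unadjusted p under 0.05 under all 16 alternatives, and *Tgfb2* did not. With the replicate number as a block, 1 gene and 0 members were called, 5 members were lower at an unadjusted p under 0.05 (*Fstl1* in addition) and the median was -0.14, so the block changed no call.

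The sign of 12 members, none of which passed a test, turned in 18 of 624 values, all with libraries left out. Over these settings *Gdf15* ranged from -0.40 to 0.75, *Bmp2* from -0.14 to 0.38, *Bmp7* from -0.36 to 0.015, *Tgfbr1* from -0.15 to 0.044, *Acvr1b* from -0.076 to 0.0083 and *Tgfbr2* from -0.22 to 0.088. *Acvr2a* ranged from -0.15 to 0.064, *Bmpr2* from -0.014 to 0.28, *Smad4* from -0.080 to 0.0087, *Smad6* from -0.046 to 0.082, *Smad7* from -0.23 to 0.091 and *Skil* from -0.15 to 0.025. The turned values of *Tgfbr2* (0.088), *Smad4* (0.0087) and *Skil* (0.025) came only without both control-tagged replicate 2 and knockout-tagged replicate 3, and the others with at least 1 single library left out. The cause was not tested. Genes near 1 CPM are limited by counting error.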
